A study of Mus musculus with 8 samples.

Results

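The 7 CC chemokine genes Ccl3, Ccl4, Ccl6, Ccl9, Ccl11, Ccl22 and Ccl24 were followed across cells that carry CD45 and Sca1, sorted from mouse bone marrow and muscle. They were found by gene symbol, which gave 9 of 22626 probe sets and 7 of 12393 named genes. Ccl6 and Ccl9 had 2 probe sets each and the others 1. CD45 is a surface protein of blood cells, and Sca1 marks stem and progenitor cells and some mature cells. The mice were of the C57BL/6 strain, 6 to 8 weeks of age, and each of the 4 groups had 2 arrays, starting from 1 µg of total RNA. The first group was bone marrow and the second was uninjured muscle. The third, called untransplanted injured muscle, was muscle after cardiotoxin, a snake venom toxin that destroys muscle fibres, in mice without a transplant. The fourth, called transplanted injured muscle, was muscle after cardiotoxin in recipients of a bone marrow transplant. The time after injury, any conditioning before the transplant and the donor or host origin of the cells were not given in the sources used here. The labels do not say whether the arrays of a group came from separate animals, so p-values describe no more than the spread of these arrays, and that spread may be technical.

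CC chemokines are small secreted proteins that steer white blood cells through G protein-coupled receptors, and macrophages release many of them. Ccl3 acts through Ccr1, which is also the receptor of the rodent chemokines Ccl6 and Ccl9. Ccl22 acts through Ccr4 on T cells, and the eotaxins Ccl11 and Ccl24 act through Ccr3 on eosinophils. In damaged muscle, monocytes enter from the blood, become macrophages, clear dead fibres and influence the muscle stem cells that rebuild the tissue.

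The members lie on 3 chromosomes, placed here by the order of protein-coding genes in the RefSeq annotation. Ccl9, Ccl6, Ccl3 and Ccl4 follow each other on chromosome 11, with Ccl5 on the far side of Ccl9. Ccl11 lies apart from them on the same chromosome, between Ccl7 and Ccl12. Ccl22 lies on chromosome 8 beside Cx3cl1, and Ccl24 on chromosome 5 beside Ccl26.

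RefSeq promoter sequences of the GRCm38.p6 build were given for 4 of the 7 members, namely Ccl3, Ccl6, Ccl9 and Ccl22. The 250 bases before each start site are shown because Ccl9, Ccl6 and Ccl3 are neighbours whose intensities moved together over the arrays, while Ccl22 had another pattern. The windows are chr11:83578637-83578886 for Ccl9, chr11:83593088-83593337 for Ccl6 and chr11:83649379-83649628 for Ccl3, all on the minus strand, and chr8:94745434-94745683 on the plus strand for Ccl22. Capitals mark, in Ccl9 and Ccl6, the part of a stretch that both genes share, and in Ccl3 and Ccl22 the Ets core motif GGAAGT or its reverse complement ACTTCC.
Ccl9: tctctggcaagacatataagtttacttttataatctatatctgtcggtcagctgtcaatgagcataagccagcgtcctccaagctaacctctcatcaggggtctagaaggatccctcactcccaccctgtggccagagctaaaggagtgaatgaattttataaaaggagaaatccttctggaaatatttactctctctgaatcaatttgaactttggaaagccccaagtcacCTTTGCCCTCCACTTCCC
Ccl6: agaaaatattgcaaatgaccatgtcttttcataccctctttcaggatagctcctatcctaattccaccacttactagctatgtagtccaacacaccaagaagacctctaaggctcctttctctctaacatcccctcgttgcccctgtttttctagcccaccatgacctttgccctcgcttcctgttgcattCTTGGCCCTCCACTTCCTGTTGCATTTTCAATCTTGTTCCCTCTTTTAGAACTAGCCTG
Ccl3: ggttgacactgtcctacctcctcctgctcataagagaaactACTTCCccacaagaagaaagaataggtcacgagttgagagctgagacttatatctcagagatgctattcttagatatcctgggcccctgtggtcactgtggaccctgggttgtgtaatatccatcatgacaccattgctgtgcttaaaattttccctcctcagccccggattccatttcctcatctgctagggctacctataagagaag
Ccl22: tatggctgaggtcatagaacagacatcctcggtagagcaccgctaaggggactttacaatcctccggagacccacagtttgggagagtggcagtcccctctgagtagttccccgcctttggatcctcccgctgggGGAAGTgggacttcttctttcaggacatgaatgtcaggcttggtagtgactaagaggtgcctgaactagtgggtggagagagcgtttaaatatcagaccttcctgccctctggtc
The stretch shared by Ccl6 and Ccl9 had 59 identical bases in 74 aligned columns (79.7%). It began 59 bases before the start site of Ccl6 and 18 bases before that of Ccl9, and ran past both start sites. The best shared stretch of any other pair of the 4 promoters spanned 10 to 20 columns. Motifs were searched on both strands of these windows and of all 32851 promoter windows of the same length. GGAAGT, the core bound by Ets factors such as the macrophage factor PU.1, occurred 1 time in each of the 4 members and in 19.7% of all windows. In Ccl6 and Ccl9 this match lay inside the shared stretch. The TATA box TATAAA occurred 3 times in Ccl9, where 2 of the matches overlapped each other, 0 times in the other 3 members and in 12.4% of all windows. An NF-kappaB motif, GGG and TTTCC with 2 bases between them, occurred 1 time in Ccl9, 0 times in the other 3 and in 1.41% of windows. A Stat motif, TTC and GAA with 4 bases between them, was found in 5.85% of windows, and a C/EBP motif, TTGC and AAT with 2 bases between them, in 2.11%, and both had 0 matches in the 4 members. A match is only a match of letters, and the absence of one says nothing about a factor.

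Values below are intensities on a linear scale, already set by the authors to a common trimmed mean, and groups are given as mean ± SD (n = 2). Fold changes are on the scale of log2(intensity + 4), with the standard error (SE) of one limma fit to all 8 arrays and p-values adjusted by Benjamini-Hochberg over 16289 probe sets. A gene was called at an adjusted p under 0.05, and a gene with several probe sets was represented by the one with the highest mean. The filter value of 38.4 is the 40th percentile of all intensities and is not a detection limit. All 9 probe sets of the members reached it on 2 or more arrays. For Ccl11, Ccl22 and Ccl24 both bone marrow arrays were under it, so they entered the tests through muscle arrays.

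Ptprc, which encodes CD45, had intensities of 4924 to 6996 over the 8 arrays and was called in no comparison, while Ly6a, which encodes Sca1, is not analysed here. The 11 measured macrophage markers summed to 3816 to 4532 in bone marrow, 19240 to 38040 in uninjured muscle, 71350 to 75850 in untransplanted and 69700 to 72440 in transplanted injured muscle. In bone marrow, Mertk and Itgam of this list were under the filter value on both arrays. Against uninjured muscle, 7 of the 11 were called higher and 1 lower in untransplanted injured muscle, beside 8.48% and 14.9% of all genes. In transplanted injured muscle 6 were higher and 1 lower, beside 10.2% and 20.4%. The lower one was Cd163 in both (log2 -1.42 and -3.07), and Mrc1 was not called (log2 -0.12 and -0.54). The ratio of the 3' to the 5' Gapdh control probe set was 10.7 to 46.9 on the bone marrow and uninjured muscle arrays and 0.808 to 0.882 on the injured muscle arrays. The same ratio for beta-actin was 5.68 to 19.0 and 1.18 to 1.23. These RNA controls split the arrays by injury, so their part in any difference between injured and other groups cannot be told apart from injury. The uninjured muscle arrays differed most from each other (r = 0.895 over all probe sets except controls, against 0.947 to 0.950 in the other groups). Of the macrophage markers, C1qa was 61.4 in uninjured muscle replicate 1 and 6301 in replicate 2.

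**Figure D1:**
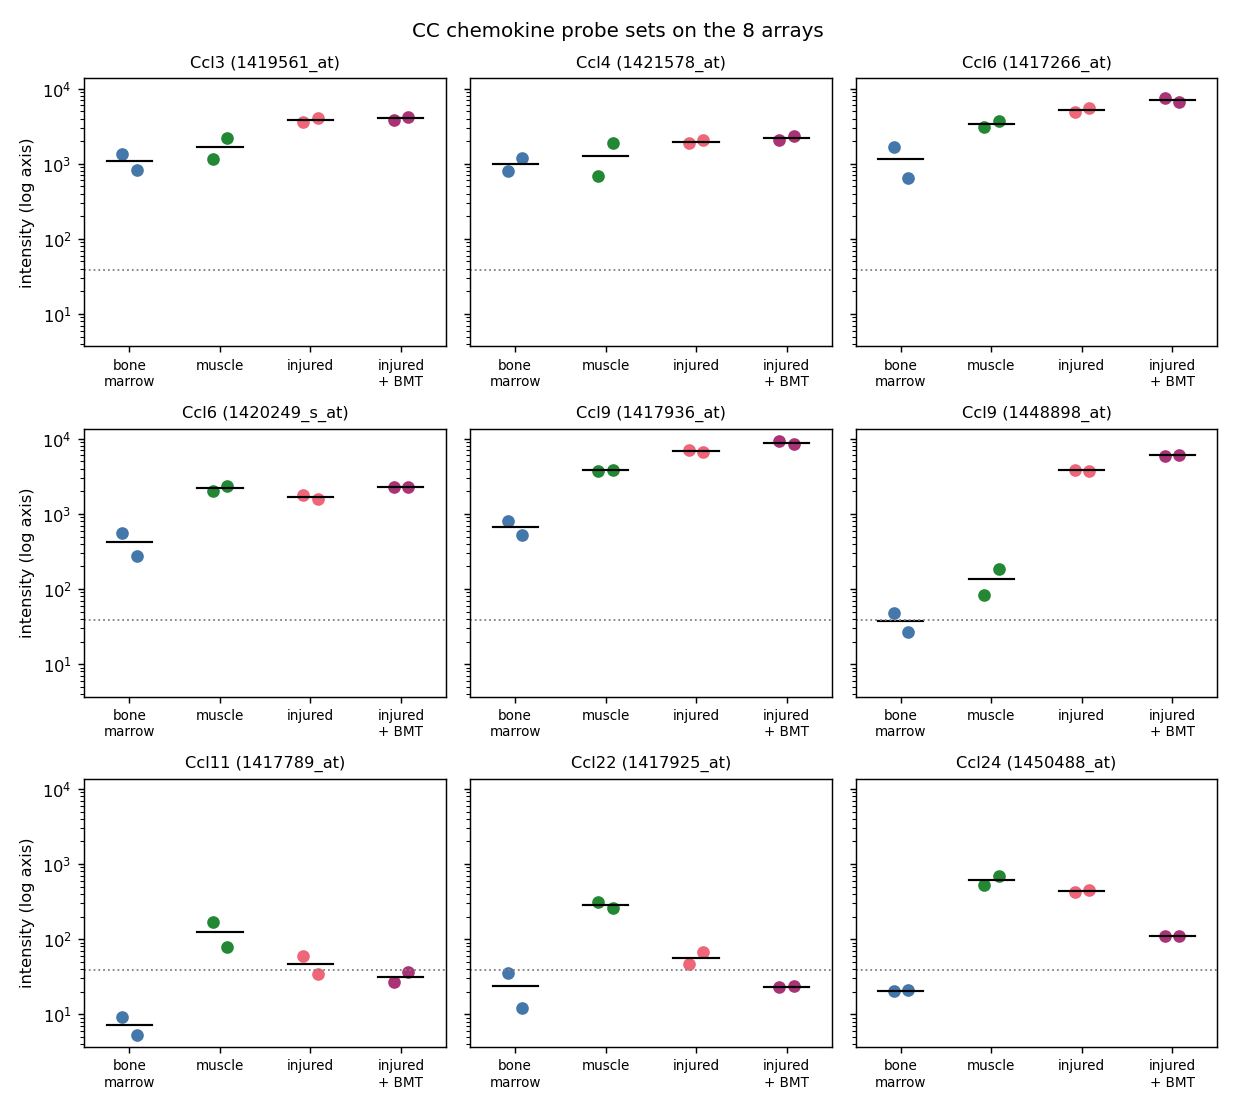
Intensity (log axis) of the 9 probe sets of the 7 chemokine genes on the 8 arrays; points are arrays, bars the mean of 2, BMT stands for bone marrow transplant and the dotted line is the filter value of 38.4. Ccl3, Ccl4 and both probe sets of Ccl6 and Ccl9 had their highest means in injured muscle, while Ccl11, Ccl22 and Ccl24 had theirs in uninjured muscle. The means of Ccl6 (1420249_s_at) were close, at 2267 in transplanted injured and 2192 in uninjured muscle.

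Ccl3, which attracts monocytes and other white blood cells, was present at high intensity in all groups and highest in injured muscle. It measured 1357 and 820.1 in bone marrow, then 1156 and 2199 in uninjured muscle, 3546 and 4054 in untransplanted and 3810 and 4247 in transplanted injured muscle. Bone marrow and uninjured muscle overlapped, and all 4 injured arrays were above both. In order, the means were 1088 ± 379, 1678 ± 738, 3800 ± 359 and 4028 ± 309. Neither bone marrow and uninjured muscle (log2 0.59, SE 0.36, adjusted p = 0.416) nor the 2 injured groups (log2 0.09, 95% interval -0.73 to 0.90, adjusted p = 0.999) differed past the threshold. Against uninjured muscle, Ccl3 was called higher in untransplanted injured muscle (log2 1.25, SE 0.36, adjusted p = 0.0359) and in transplanted injured muscle (log2 1.33, SE 0.36, adjusted p = 0.0241). Both comparisons share the uninjured muscle arrays. The first call held under 12 of 20 alternatives and was lost without uninjured muscle replicate 1 (log2 0.78), either untransplanted injured array (log2 1.34 and 1.15) or either transplanted array (log2 1.25). The second held under 16 of 20 and was lost without uninjured muscle replicate 1 (log2 0.87) or either transplanted array (log2 1.41 and 1.25). Against bone marrow Ccl3 was higher by log2 1.84 and 1.93 (SE 0.36, adjusted p = 0.00667 and 0.00523), and the first of these was lost without untransplanted injured replicate 2 (log2 1.75, adjusted p = 0.0555).

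Ccl4, the close relative of Ccl3, was called in none of the 6 comparisons. It measured 808.4 and 1179 in bone marrow, then 683.7 and 1872 in uninjured muscle, 1869 and 2061 in untransplanted and 2087 and 2365 in transplanted injured muscle. Uninjured muscle replicate 2 was as high as the lowest injured array, and replicate 1 was the lowest of all 8. The means kept the order of Ccl3, at 993.7 ± 262, 1278 ± 841, 1965 ± 135 and 2226 ± 197, but no neighbours in that order differed past the threshold. The log2 difference between transplanted injured muscle and bone marrow was 1.18 (95% interval 0.16 to 2.20, unadjusted p = 0.0282, adjusted p = 0.074). Without uninjured muscle replicate 2, Ccl4 was called higher in untransplanted (log2 1.52) and transplanted injured muscle (log2 1.69) than in uninjured muscle. Without either uninjured muscle array it was called higher in untransplanted (log2 1.00) and transplanted injured muscle (log2 1.18) than in bone marrow. Over the 8 arrays, which share groups and processing, the log2 intensities of Ccl3 and Ccl4 correlated with r = 0.85.

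Ccl6, a rodent chemokine made by macrophages and other myeloid cells, was higher in muscle than in bone marrow by both probe sets. The first, 1417266_at, measured 1690 and 650.4 in bone marrow, then 3120 and 3697 in uninjured muscle, 4945 and 5458 in untransplanted and 7565 and 6666 in transplanted injured muscle. These 4 groups did not overlap. The second, 1420249_s_at, measured 561.6 and 273.6, then 2044 and 2340, then 1778 and 1582, then 2268 and 2266 in the same order. By this probe set the untransplanted injured arrays were the lowest of the 3 muscle groups, and the transplanted arrays lay between the uninjured ones. Probe sets whose names end in _s_at can match more than one transcript.

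Uninjured muscle exceeded bone marrow by log2 1.69 (SE 0.39, adjusted p = 0.044) for the first Ccl6 probe set and by log2 2.47 (SE 0.34, adjusted p = 0.00471) for the second. The first of these calls held under 7 of 20 alternatives, with values from 1.01 to 2.38. It was lost without bone marrow replicate 2 (log2 1.01), uninjured muscle replicate 1 (log2 1.81) or 2 (log2 1.57), or any one injured array (log2 1.69). The second held under 18 of 19. No neighbouring muscle groups differed past the threshold by either probe set: untransplanted injured against uninjured muscle gave log2 0.61 (SE 0.39, adjusted p = 0.271) and -0.38 (SE 0.34, adjusted p = 0.427), so the probe sets took opposite signs. Transplanted injured against uninjured muscle gave log2 1.06 (95% interval 0.16 to 1.97, adjusted p = 0.0703) for the first, which was called without bone marrow replicate 1 or 2 at the same log2 value. Both injured groups exceeded bone marrow by log2 2.30 and 2.75 (SE 0.39, adjusted p = 0.00395 and 0.00173) with the first probe set.

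Ccl9, also known as macrophage inflammatory protein-1 gamma, was higher in muscle than in bone marrow and higher again after injury. Its brighter probe set, 1417936_at, measured 808.8 and 524.5 in bone marrow, then 3721 and 3868 in uninjured muscle, 7085 and 6755 in untransplanted and 9414 and 8430 in transplanted injured muscle. All 4 groups were apart, and replicates within muscle groups were close. The order was bone marrow (666.7 ± 201), uninjured muscle (3794 ± 104), untransplanted (6920 ± 234) and transplanted injured muscle (8922 ± 696). Bone marrow and uninjured muscle differed by log2 2.53 (SE 0.24, adjusted p = 7.89e-04), which held under all 20 alternatives. Uninjured and untransplanted injured muscle differed by log2 0.87 (SE 0.24, adjusted p = 0.0309), and uninjured and transplanted injured muscle by log2 1.23 (SE 0.24, adjusted p = 0.00683). The 0.87 was called under 12 of 20 alternatives and was lost without uninjured muscle replicate 1 (log2 0.84), either untransplanted injured array (log2 0.83 and 0.90) or either transplanted array (log2 0.87). The 1.23 was lost without transplanted replicate 1 (log2 1.15). The 2 injured groups were not separated by the test (log2 0.36, 95% interval -0.18 to 0.91, adjusted p = 0.835). Against bone marrow the injured groups were higher by log2 3.40 and 3.77 (SE 0.24, adjusted p = 9.17e-05 and 7.33e-05).

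The second Ccl9 probe set, 1448898_at, gave a far larger difference with injury. The bone marrow arrays gave 47.8 and 26.7, and those of uninjured muscle 82.9 and 186.1, but the values were 3847 and 3767 in untransplanted and 5875 and 6142 in transplanted injured muscle. Every injured array was far above every other array. Against uninjured muscle the log2 differences were 4.89 and 5.55 (SE 0.42, adjusted p = 8.58e-04 and 3.58e-04), and both held under all 19 alternatives run. Uninjured muscle against bone marrow gave log2 1.69 (SE 0.42, adjusted p = 0.0595), which was called without uninjured muscle replicate 1 (log2 2.25) or 2 (log2 1.12).

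The response of the brighter Ccl9 probe set to injury differed from that of the second by log2 -4.02 (SE 0.42, adjusted p = 0.00335) in untransplanted and -4.32 (SE 0.42, adjusted p = 0.00259) in transplanted mice. This limma test, chosen after the values were seen, took the log2 difference between 2 probe sets of a gene on each array. Of 3544 genes with such a pair, 29.0% and 33.4% were called in these comparisons, against 0.198% for uninjured muscle against bone marrow. Disagreement between probe sets was common in the comparisons across injury, whose arrays also differed in RNA control ratios. In the same comparisons, in that order, 23.4%, 30.6% and 7.11% of all genes were called. The part of RNA integrity in the Ccl9 difference was not tested. For Ccl6 the probe sets differed in response by log2 0.99 (SE 0.34, adjusted p = 0.0634) and 1.01 (SE 0.34, adjusted p = 0.0547).

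**Figure D2:**
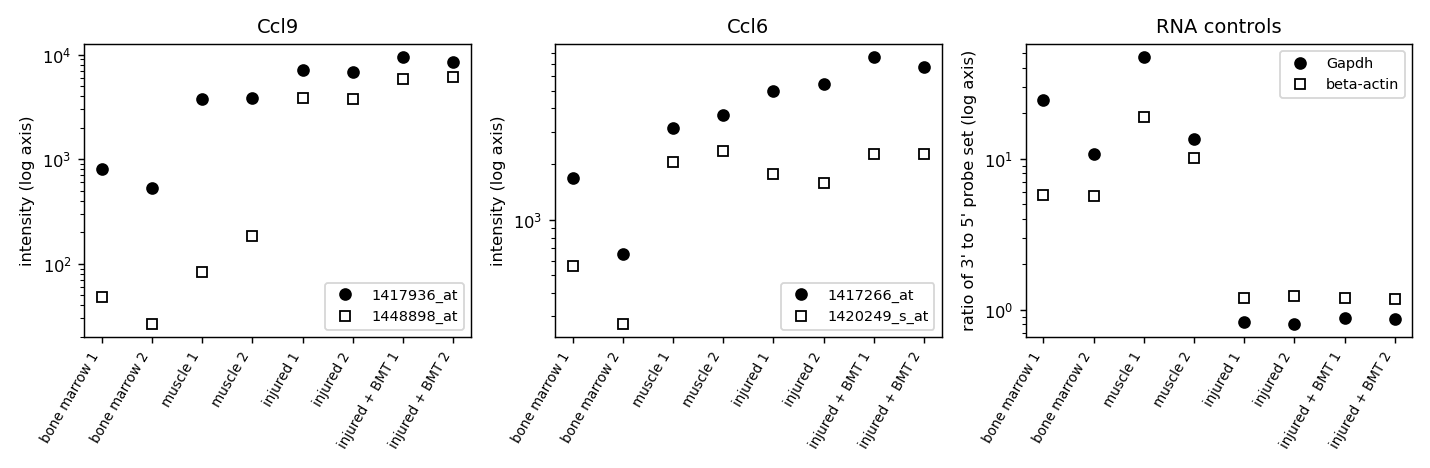
Intensity (log axis) of both Ccl9 and both Ccl6 probe sets on each of the 8 arrays, and the ratio of the 3' to the 5' control probe set (log axis) for Gapdh and beta-actin; BMT stands for bone marrow transplant. The second Ccl9 probe set (1448898_at) stayed at or under 186.1 on the 4 arrays with Gapdh ratios of 10.7 to 46.9 and reached 3767 to 6142 on the 4 with ratios of 0.808 to 0.882.

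Ccl22, which draws Ccr4-bearing T cells and is made by macrophages and dendritic cells, was highest in uninjured muscle. It measured 35.8 and 12.2 in bone marrow, then 311.2 and 256.6 in uninjured muscle, 46.6 and 66.8 in untransplanted and 23.1 and 23.4 in transplanted injured muscle. Both uninjured muscle arrays stood above the other 6, and the transplanted arrays lay within the bone marrow range. Uninjured muscle was at least 6.76-fold above bone marrow, counted against the filter value of 38.4 (measured means 283.9 ± 38.6 and 24.0 ± 16.7). The fitted adjusted p was 0.00511, and the call was lost only when the 4 arrays compared were fitted alone (adjusted p = 0.0524). After injury Ccl22 fell by 2.26 on the log2 scale in untransplanted mice (SE 0.49, adjusted p = 0.0144), which was lost without untransplanted injured replicate 1 (log2 -2.02) or 2 (log2 -2.50). In transplanted mice it was at least 6.76-fold lower than in uninjured muscle (adjusted p = 0.00244), and this held under all 20 alternatives. Transplanted was at least 1.41-fold below untransplanted injured muscle, which was not called (unadjusted p = 0.0506, adjusted p = 0.574). Untransplanted injured muscle was at least 1.41-fold above bone marrow, which was called only without bone marrow replicate 1 (adjusted p = 0.0349 against 0.0914). The 8 measured muscle fibre markers summed to 337.1 to 377.2 in bone marrow, 3536 to 6123 in uninjured muscle, 890.6 to 986.2 in untransplanted and 209.3 to 247.6 in transplanted injured muscle, with 5, 0, 2 and 5 of them under 38.4 on both arrays. Both these sums and the Ccl22 means were highest in uninjured muscle, with untransplanted injured muscle next. The mast cell and basophil sums, given with Ccl24 below, ranked these groups the same way. Ccl22 in bone marrow and in transplanted injured muscle overlapped under 38.4, so no order of those groups can be read. The 8 neutrophil marker genes summed to 34240 to 42210, 15390 to 27150, 1179 to 1207 and 1640 to 1829, listed from bone marrow to transplanted injured muscle as above. The 7 dendritic cell markers summed to 7731 to 8542, 5713 to 8415, 18560 to 21380 and 5718 to 6286. Of their sums in untransplanted injured muscle, H2-Aa alone gave 17130 and 19780. The median log2 change of these 7 markers from uninjured to untransplanted injured muscle was -0.29. The part of any of these cell types in the Ccl22 values was not tested. Fewer producing cells and less RNA per cell cannot be told apart in such sorted pools, for this gene or any other.

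Ccl24, an eotaxin that macrophages make in response to interleukin 4, had the largest fitted difference between uninjured muscle and bone marrow of the 7 members. It measured 20.2 and 20.9 in bone marrow, then 527.7 and 698.8 in uninjured muscle, 418.3 and 447.4 in untransplanted and 110.3 and 111.5 in transplanted injured muscle. The 4 groups did not overlap, and uninjured muscle was highest. Uninjured muscle was at least 14.4-fold above bone marrow (adjusted p = 2.13e-04, held under all 20 alternatives). Uninjured and untransplanted injured muscle did not differ past the threshold (log2 -0.49, SE 0.31, adjusted p = 0.276). Transplanted injured muscle was 5.32-fold lower than uninjured muscle (log2 -2.41, SE 0.31, adjusted p = 0.00168), under all 20 alternatives too. Both injured groups remained above bone marrow, at least 10.3-fold without a transplant (adjusted p = 1.32e-04) and at least 2.71-fold with one (adjusted p = 0.00168).

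Between the 2 injured groups Ccl24 was the member with the smallest p. Transplanted injured muscle was lower by log2 -1.93 (SE 0.31, 95% interval -2.65 to -1.20, unadjusted p = 2.74e-04), with both arrays below both untransplanted arrays. The adjusted p of 0.0648 missed the threshold. It passed under 6 of 20 alternatives, among them leaving out uninjured muscle replicate 1 (adjusted p = 0.016) or 2 (adjusted p = 0.0157). Over all 20 alternatives the log2 value ranged from -1.97 to -1.79 and the adjusted p from 2.74e-04 to 0.469. The 8 measured mast cell and basophil markers summed to 1033 to 1063 in bone marrow, 6968 to 7180 in uninjured muscle, 2831 to 3206 in untransplanted and 216.7 to 230.5 in transplanted injured muscle. Of these, 3 were called lower in transplanted than in untransplanted injured muscle, beside 0.285% of all genes. Mcpt4, Tpsb2, Kit, Ms4a2 and Mcpt8 were under 38.4 on both transplanted arrays. Other lists moved too: 2 of 8 muscle fibre and 1 of 7 dendritic cell markers were called lower. Of 11 natural killer and T cell markers, 2 were called higher. Of 8 fibroblast markers 0 were called, with 6 lower at an unadjusted p under 0.05 by limma. The part of any of these cells in the Ccl24 difference was not tested.

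Ccl11, the other eotaxin, was highest in uninjured muscle and under the filter value on 5 of the 8 arrays. It measured 9.1 and 5.4 in bone marrow, then 168.6 and 78.5 in uninjured muscle, 58.8 and 33.9 in untransplanted and 26.5 and 36.3 in transplanted injured muscle. Only uninjured muscle and 1 untransplanted injured array passed 38.4, and the injured groups overlapped. Uninjured muscle was at least 2.82-fold above bone marrow (adjusted p = 0.00762). The call held under 15 of 19 alternatives. It was lost without bone marrow replicate 2 and with values under 38.4 set to it (log2 1.49, adjusted p = 0.0501). Array weights (adjusted p = 0.0587) and only the 4 arrays compared (adjusted p = 0.0513) also lost it. Transplanted injured muscle was at least 2.82-fold lower than uninjured muscle (adjusted p = 0.0362). That call held under 10 of 19 alternatives and was lost without uninjured muscle replicate 1 (adjusted p = 0.174), untransplanted injured replicate 1 (adjusted p = 0.0508) or either transplanted array (adjusted p = 0.159 and 0.0944). Untransplanted injured muscle was not called lower than uninjured muscle (log2 -1.29, SE 0.53, adjusted p = 0.106), though it was without uninjured muscle replicate 2 (log2 -1.82) and with that floor (log2 -1.21, adjusted p = 0.0425). The injured groups did not differ past the threshold (adjusted p = 0.993). Against bone marrow, Ccl11 was called higher in untransplanted injured muscle (at least 1.15-fold, adjusted p = 0.0182), from a fit that uses values under 38.4. With those values set to 38.4 the call was lost (log2 0.28, adjusted p = 0.598), as it was without bone marrow replicate 1 (adjusted p = 0.0501) or 2 (adjusted p = 0.0854) or untransplanted injured replicate 1 (adjusted p = 0.116). It was also called in transplanted injured muscle (adjusted p = 0.0444), where no fold is given because all 4 arrays compared were under 38.4. That call was lost with the floor, where the difference is 0 by construction, and without any one of the 6 bone marrow and injured arrays. It was also lost with no filter (adjusted p = 0.0649) and with the 25th percentile added in place of 4 (adjusted p = 0.09).

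Fibroblasts and endothelial cells also make Ccl11, so their markers are given beside it. The 8 fibroblast markers summed to 177.0 to 348.3 in bone marrow, 7541 to 30140 in uninjured muscle, 20090 to 20300 in untransplanted and 3754 to 4038 in transplanted injured muscle. The 8 endothelial markers summed to 710.0 to 755.8, 6562 to 10480, 794.8 to 808.3 and 774.2 to 797.2 in the same order. Fabp4 alone gave 6521 and 4101 in uninjured muscle replicates 1 and 2. Of the 8 endothelial markers, 5 were called higher in uninjured muscle than in bone marrow, Fabp4 among them, while 5.72% of all genes were. The other 3, Pecam1, Cdh5 and Tie1, were not called. Fibroblast sums of untransplanted injured muscle lay within the range of uninjured muscle. By limma 0 of 8 markers were called (1 higher at an unadjusted p under 0.05), beside 8.48% of all genes higher and 14.9% lower. In transplanted injured muscle 4 of 8 were called lower than in uninjured muscle, beside 20.4% of all genes. Endothelial sums were highest in uninjured muscle, and 6 of 8 markers were called lower without a transplant and 7 with one. The part of these cells in the Ccl11 values was not tested. Of the 6 measured eosinophil markers, the cells that eotaxins attract, all 6 were under 38.4 on both arrays of each injured group, and 4 were in uninjured muscle, Ccr3 among them.

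Between uninjured muscle and bone marrow, 5 of the 7 members were called higher (Ccl6, Ccl9, Ccl11, Ccl22 and Ccl24) and 0 lower by limma, while 5.72% of the 9486 genes tested were called higher and 1.38% lower. This comparison sets cells sorted from muscle against cells sorted by the same surface proteins from bone marrow. With an unadjusted p under 0.05 as the threshold, 0 members were lower as well. Ccl11, Ccl22 and Ccl24 entered the tests only through muscle arrays, so they could hardly be called lower. Their calls as higher are not independent of that filter. The median log2 change of all genes was -0.06, and relative to it Ccl6 and Ccl9 changed by 1.75 and 2.59. Ccl11, Ccl22 and Ccl24 have only the bounds given above. With values under 38.4 set to it the count was 3, while 9.47% of all genes were called. The count also fell without bone marrow replicate 2, and the share of all genes called fell then too.

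Injury was examined by setting each injured group against uninjured muscle. In untransplanted mice 2 of 7 members were called higher (Ccl3 and Ccl9), while 8.48% of genes were, and 1 was called lower (Ccl22), while 14.9% of genes were. Relative to the median of all genes (-0.25), these changed by 1.50, 1.12 and -2.01. The count fell without any one injured array or uninjured muscle replicate 1, and rose without uninjured muscle replicate 2. The share of all genes called also fell without any one injured array and rose without uninjured muscle replicate 2. It hardly moved without replicate 1. In transplanted mice 2 of 7 were called higher (Ccl3 and Ccl9), against 10.2% of genes, and 3 lower (Ccl11, Ccl22 and Ccl24), against 20.4%. Relative to the median of all genes (-0.31), Ccl3, Ccl9 and Ccl24 changed by 1.64, 1.54 and -2.10, and Ccl11 and Ccl22 have only bounds. This count of 5 fell without uninjured muscle replicate 1 or either transplanted array. The share of all genes called also fell without either transplanted array, but hardly moved without uninjured muscle replicate 1. Centring arrays on their medians moved the median of all genes by 0.15 and 0.29 in these comparisons, by 0.17 in uninjured muscle against bone marrow and by 0.13 between the injured groups. The share of called genes that were higher then went from 36.3% to 46.9% and from 33.4% to 50.3%.

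The effect of the transplant was examined by setting the injured groups against each other. Limma called 0 of 7 members, with 0.0422% of genes called higher and 0.285% lower, and only Ccl24 had an unadjusted p under 0.05. Ccl24 was called without uninjured muscle replicate 1 or 2, where a larger share of all genes was called as well. Of all genes called, 12.9% were higher (4 higher, 27 lower), and 25% with quantile normalization (2 higher, 6 lower). Set against bone marrow, 5 of 7 members were called higher in untransplanted injured muscle (12.4% of genes) and 5 in transplanted injured muscle (11.8%), in both cases Ccl3, Ccl6, Ccl9, Ccl11 and Ccl24. None were called lower, against 16.9% and 19.2% of genes, and at an unadjusted p under 0.05 by limma 0 were lower too. For Ccl11, Ccl22 and Ccl24 this was nearly fixed by the filter, since both bone marrow arrays were under 38.4. With values under 38.4 set to it the count was 4 in each, without Ccl11. These 2 comparisons share the bone marrow arrays.

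**Figure D3:**
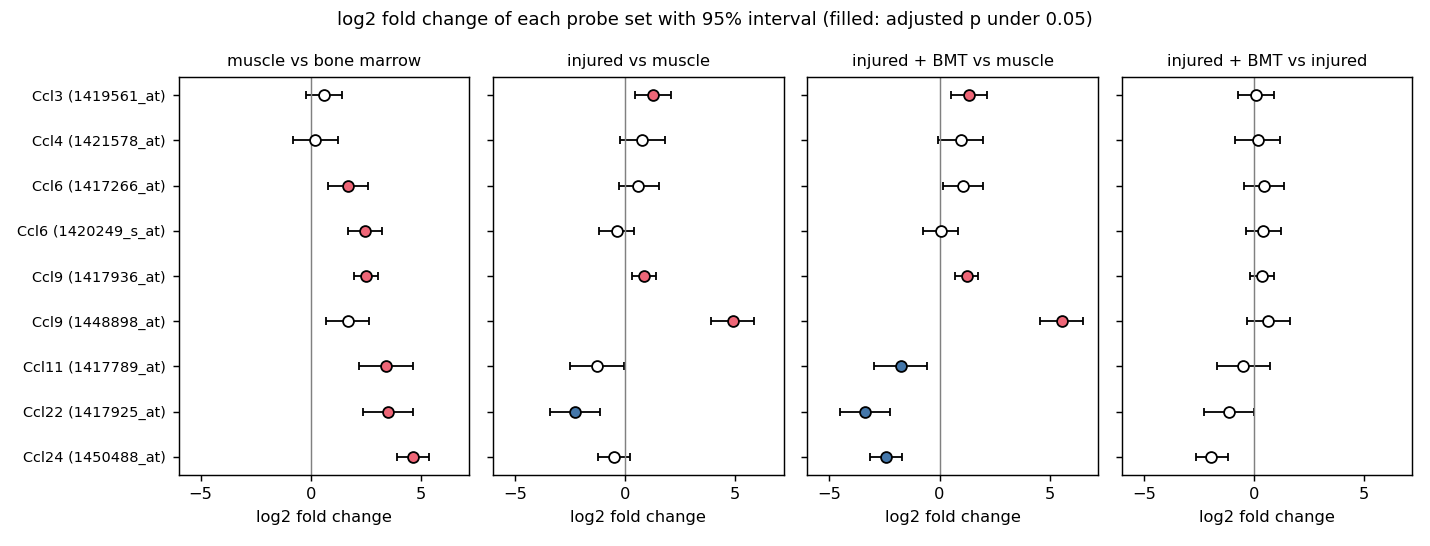
Log2 fold change with its 95% interval for the 9 probe sets in 4 comparisons; filled points had an adjusted p under 0.05 (red higher, blue lower), BMT stands for bone marrow transplant, and fitted points of groups under 38.4 are no bounds. The intervals of Ccl22 and Ccl24 lay above 0 for muscle against bone marrow and below 0 for transplanted injured against uninjured muscle, and no point is filled between the injured groups.

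Over the 8 arrays, log2 intensities of the members are described here as correlations over arrays that share groups, scaling and RNA quality. Ccl6 (1417266_at) and Ccl9 (1417936_at) had r = 0.97, and Ccl3 had r = 0.91 with Ccl6 and 0.88 with Ccl9. Ccl11 had r = 0.90 with Ccl24 and 0.84 with Ccl22, and Ccl22 had r = 0.78 with Ccl24. Across these sets the values spread widely. Ccl22 had r = -0.28 with Ccl4, -0.10 with Ccl3 and 0.22 with Ccl9 (1417936_at), while Ccl9 (1417936_at) had r = 0.70 with Ccl24 and 0.63 with Ccl11. The second Ccl6 probe set (1420249_s_at) had r = 0.81 with Ccl11 and 0.80 with Ccl24, above the 0.78 between Ccl22 and Ccl24. For each member the 3 named genes with the highest r over the 8 arrays were also found. For Ccl9 they were the complement receptor gene C3ar1 (r = 0.998), Ms4a6d (r = 0.998) and Mitf (r = 0.996). For Ccl6 they were Cflar, Serpinb8 and Litaf (r = 0.979 to 0.987), for Ccl3 Ralb, Specc1 and Cmtm3 (0.984 to 0.994) and for Ccl4 Tbc1d13, Dennd1a and Mtmr14 (0.984 to 0.988). For Ccl11 they were Aoc3, Cald1 and Tslp (0.975 to 0.981), where Cald1 encodes a protein of contractile cells. For Ccl22 they were Myh1, Maoa and the growth factor gene Csf2 (0.974 to 0.981), where Myh1 encodes a myosin of muscle fibres. For Ccl24 they were Spats2, Rcan1 and Col18a1 (0.987 to 0.989).

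The receptors were read from a list of 8, of which 7 had a named probe set and 4 passed the filter. Ccr1, the receptor of Ccl3, Ccl6 and Ccl9, measured 321.9 and 169.1 in bone marrow, then 761.5 and 600.3 in uninjured muscle, 1486 and 1779 in untransplanted and 2271 and 2045 in transplanted injured muscle. The groups did not overlap and followed the order of its ligand Ccl9. It was called higher in uninjured muscle than in bone marrow (log2 1.52, SE 0.35, adjusted p = 0.0423). It was higher in untransplanted (log2 1.26, adjusted p = 0.0324) and transplanted injured muscle (log2 1.67, adjusted p = 0.00968) than in uninjured muscle. Ccrl2, a receptor that binds chemoattractants without signalling to the cell, rose from 875.0 and 959.0 in uninjured muscle to 5199 and 6075 in untransplanted and 3725 and 3198 in transplanted injured muscle (log2 2.61 and 1.91, SE 0.24, adjusted p = 9e-04 and 0.00136). Ackr1, a decoy receptor of red cells and venule endothelium, measured 307.4 and 412.7 in uninjured muscle and at most 81.0 elsewhere, and was called lower in both injured groups (log2 -2.31 and -3.11, adjusted p = 0.00562 and 0.0014). The eotaxin receptor Ccr3, the Ccl22 receptor Ccr4 and the decoy Ackr2 did not pass the filter. In all, 3 of the 4 tested receptors were called higher in uninjured muscle than in bone marrow (median log2 1.64), and after injury 2 were higher and 1 lower in each injured group (median log2 0.22 and 0.30). All tested genes had medians of -0.06, -0.25 and -0.31 in these 3 comparisons. The share of all genes called higher in uninjured muscle than in bone marrow was 5.72%. After injury 8.48% of all genes were higher and 14.9% lower without a transplant, and 10.2% and 20.4% with one. List medians are of fitted values, dim genes included.

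Among 13 other CC chemokines, 8 were tested. Of these, 5 were called higher in uninjured muscle than in bone marrow (median log2 3.21), the monocyte attractants Ccl2, Ccl7, Ccl8 and Ccl12 and the Ccr4 ligand Ccl17. After injury 4 were higher and 2 lower in untransplanted mice, and 4 higher and 4 lower in transplanted mice (median log2 1.14 and 0.16). Beside these counts, 5.72% of all genes were higher in uninjured muscle than in bone marrow. After injury 8.48% of all genes were higher and 14.9% lower without a transplant, and 10.2% and 20.4% with one. Ccl17, which shares Ccr4 with Ccl22, measured 26.4 and 29.8 in bone marrow, then 194.4 and 185.6 in uninjured muscle, 36.6 and 24.4 in untransplanted and 26.2 and 14.7 in transplanted injured muscle. As with Ccl22, both uninjured muscle arrays stood above the other 6. Ccl17 was called higher in uninjured muscle than in bone marrow (adjusted p = 0.0106) and lower in both injured groups than in uninjured muscle (adjusted p = 0.00598 and 0.00221). Ccl2, the main monocyte attractant, went from 1509 and 1277 in uninjured muscle to 8395 and 8438 in untransplanted and 9842 and 9643 in transplanted injured muscle (log2 2.60 and 2.81, SE 0.22, adjusted p = 8.11e-04 and 3.62e-04). Ccl5, the chromosome 11 neighbour of Ccl9, moved the other way, from 1187 and 1783 to 331.5 and 268.1 and to 365.4 and 370.1 (log2 -2.27 and -1.97, SE 0.34, adjusted p = 0.004 and 0.00464).

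**Figure D4:**
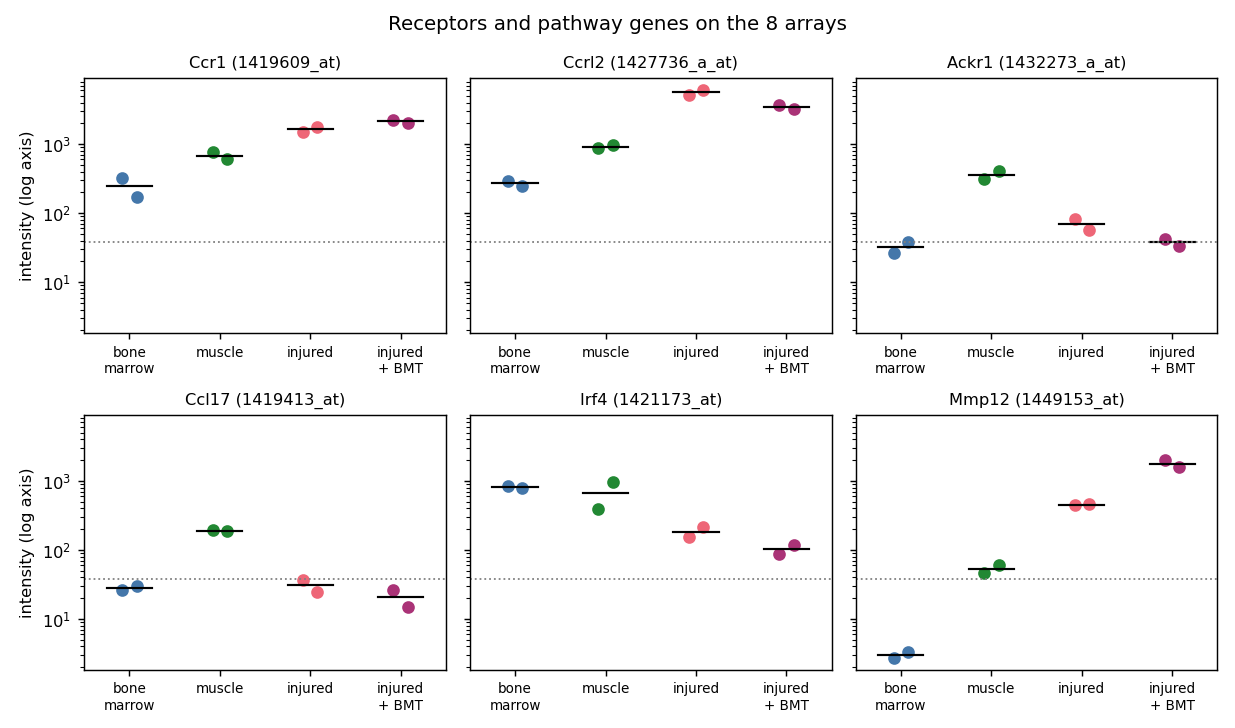
Intensity (log axis) of 3 receptors (Ccr1, Ccrl2, Ackr1) and 3 pathway genes (Ccl17, Irf4, Mmp12), picked after their values were seen, on the 8 arrays; points are arrays, bars the mean of 2, the dotted line is 38.4 and BMT stands for bone marrow transplant. For Ackr1 and Ccl17 both uninjured muscle arrays stood above the other 6, and Mmp12 went from 2.70 and 3.30 in bone marrow to 1984 and 1575 in transplanted injured muscle.

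Genes that carry signals to or from these chemokines were counted by list. Of 9 tested genes of interleukin 4 and 13 signalling, which induces Ccl22 and Ccl24, 1 was called higher in uninjured muscle than in bone marrow, the receptor chain gene Il13ra1 (log2 2.38, SE 0.34, adjusted p = 0.00527). After injury 1 was higher and 1 lower in untransplanted mice and 0 higher and 2 lower in transplanted mice (median log2 0.25 and 0.28), with 1 higher in the latter at an unadjusted p under 0.05 by limma. Of all genes, 5.72% were higher in uninjured muscle than in bone marrow. After injury 8.48% were higher and 14.9% lower without a transplant, and 10.2% and 20.4% with one. The counts of 9 after injury are thus near the background. Irf4, a transcription factor of this pathway, was lower in both (log2 -1.74 and -2.55, SE 0.45, adjusted p = 0.0264 and 0.00514). Il4 was lower in transplanted injured muscle (adjusted p = 0.0327), where it measured 16.6 and 13.6, under the filter value, against 96.2 and 53.2 in uninjured muscle. NF-kappaB drives Ccl3 and Ccl4. Of 13 genes of NF-kappaB, its inducers and its inhibitors, 2 were called higher in uninjured muscle than in bone marrow. After injury 3 were higher and 1 lower without a transplant, and 3 higher and 2 lower with one (median log2 1.00 and 0.97), beside those same shares of all genes. The higher ones were Il1b and the NF-kappaB inhibitor genes Nfkbie and Tnfaip3. Tnfaip3 measured 32.1 and 42.9 in uninjured muscle, 1168 and 1712 in untransplanted and 1610 and 847.0 in transplanted injured muscle (log2 5.11 and 4.83, SE 0.51, adjusted p = 0.00114 and 8.54e-04).

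Of 12 genes that transmit signals from chemokine receptors, 0 were called between uninjured muscle and bone marrow by limma (at an unadjusted p under 0.05, 2 were higher and 1 lower). Of the 12, 3 were higher after injury without a transplant and 5 with one (median log2 0.93 and 1.21), and 0 were lower, with 1 lower at an unadjusted p under 0.05 in each. Among all genes 5.72% were higher in uninjured muscle than in bone marrow and 1.38% lower. After injury 8.48% were higher and 14.9% lower without a transplant, and 10.2% and 20.4% with one. Rgs1, which dampens chemokine receptor signals, was the 1 listed pathway gene called between the injured groups. It measured 3374 and 3289 in untransplanted and 9589 and 8678 in transplanted injured muscle (log2 1.45, SE 0.19, adjusted p = 0.0354). Of 7 genes for chemokine processing and matrix binding, 1 was called higher in uninjured muscle than in bone marrow, and 2 were higher and 1 lower after injury in each injured group (median log2 0.21 and 0.40). These counts stand beside the same shares of all genes, and the 1 of 7 lower is near them. Mmp12, the macrophage elastase, which can cut chemokines, rose by log2 3.01 and 4.97 after injury (SE 0.33, adjusted p = 0.00151 and 2.35e-04), and Mmp9, another protease that cuts chemokines, fell by 2.60 and 3.30 on the log2 scale (SE 0.31, adjusted p = 0.00199 and 6.68e-04). The part of RNA integrity and of the marker sums in these list counts was not tested.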

How the data were processed

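RNA of the 8 samples was measured on Affymetrix Mouse430A arrays, labelled by a one-cycle method, per the labels' protocols. The deposited values are intensities on a linear scale, 1 per probe set. The authors' deposited intensities had a trimmed mean, without the lowest and highest 2% of probe sets, of 250.09 to 250.12 on each array. The submitters' processing notes name GCOS, with no version, and how probes were summarised is not given in the sources used here. The number of arrays limits the precision.

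Of 22690 probe sets, 64 controls were left out. By the annotation given, 20380 had 1 gene, 691 several and 1555 none, and symbols were updated through RefSeq for 20364. Values were raised to at least 1 and turned into log2(intensity + 4), where 4 is the 10th percentile. A probe set entered the tests where 2 or more arrays reached 38.4, the 40th percentile (16289 probe sets, 9486 genes). limma 3.58.1 under R 4.3.3 fitted 4 group means to all 8 arrays (4 residual and a median of 4.07 prior degrees of freedom) with an intensity trend, two-sided, adjusted by Benjamini-Hochberg per comparison at 0.05, in 6 comparisons. The code was tested on simulated data. A fold against a group with both arrays under 38.4 was taken against that value, with 4 added to both, and written "at least".

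The 7 members were all named. Genes of the pathway lists were named from the up to 4 with the smallest p in a comparison, or to complete a count, and the 3 genes most like each member by Pearson's r. The members and lists were chosen with earlier results of these data known. Alternatives were quantile normalization, median centring, pseudocounts of 1 and of the 25th percentile, no filter or one at the 60th percentile, a floor at the 40th percentile, no intensity trend, array weights, only the 4 arrays compared, a replicate block, a gene's probe sets averaged, and each array left out in turn, where a lone array is assumed to vary like the other groups. They were run for the members, not for the pathway lists.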

Additional observations from a re-analysis of the deposited data

How the results depend on the processing

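Of 1062 values of the 9 probe sets under the alternatives, 962 kept direction and side of the threshold, 65 lost a call, 29 gained one and 6 changed sign. The sign changes were in values that were not called: Ccl6 (1420249_s_at) in transplanted injured against uninjured muscle (-0.05 with quantile normalization and -0.05 without uninjured muscle replicate 1, from 0.05, with leave-one-out values up to 0.15), Ccl4 in uninjured muscle against bone marrow (-0.06 without bone marrow replicate 1 and -0.51 without uninjured muscle replicate 2, from 0.21, and up to 0.94), Ccl22 in transplanted injured muscle against bone marrow (-0.55 without bone marrow replicate 2, from 0.10, and up to 0.75) and Ccl3 between the injured groups (-0.01 without untransplanted injured replicate 1, from 0.09, and up to 0.18). The causes were not tested.

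The number of members called in untransplanted injured against uninjured muscle went from 3 to 1 with quantile normalization and to 1 with no intensity trend. The share of all genes called was then 22.1% and 21.4%. In uninjured muscle against bone marrow the number went from 5 to 3 with values under the 40th percentile set to it. It was 3 with array weights and 2 with only the 4 arrays compared. The shares of all genes were 9.47%, 3.54% and 2.12%. Between the injured groups the number went from 0 to 1 (Ccl24) with that floor, with array weights, with only the 4 arrays compared and with probe sets averaged per gene. The share of all genes called went from 0.327% to 0.780%, 5.72%, 7.94% and 0.662% under these settings. With each array left out, the counts ranged from 3 to 5 (uninjured muscle against bone marrow), 0 to 5 and 2 to 6 (untransplanted and transplanted injured against uninjured muscle), 0 to 1 (between the injured groups), and 4 to 6 and 4 to 6 (untransplanted and transplanted injured muscle against bone marrow). The share of all genes called, 7.11%, 23.4%, 30.6%, 0.327%, 29.3% and 31.0% in these comparisons, ranged over the alternatives from 2.12% to 21.5%, 6.39% to 36.8%, 13.5% to 41.7%, 0% to 7.94%, 13% to 42.3%, 14.9% to 43.5%.

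The labels give each group replicate numbers 1 and 2, but nothing says that these pair the arrays. Differences between replicates correlated with 0.25 between bone marrow and uninjured muscle and -0.02 to 0.00 between other groups. With a replicate block, the 1 change was that Ccl4 was called in transplanted injured muscle against bone marrow (log2 1.18, adjusted p = 0.0395 against 0.074), which made 6 members in place of 5. With the filter at the 60th percentile Ccl11 gave no value. Dim members are limited by signal. These were Ccl11, Ccl22 and Ccl24 in bone marrow, Ccl11 and Ccl22 in transplanted injured muscle, and Ccl11 on untransplanted injured replicate 2. Under 38.4 their fitted values depend on the pseudocount.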
